A study of Tigriopus californicus with 4 samples.

Results

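Ferritins are the iron storage proteins of animals, plants and bacteria. They were followed here in the intertidal copepod *Tigriopus californicus* by taking every contig whose BLAST-derived product name contained the word ferritin, other than names that carry a bracketed species. This gave 17 contigs of 41209, of which 7 belonged to the 20278 San Diego (SD) contigs and 10 to the 20931 Santa Cruz (SC) contigs. A contig is an assembled stretch of transcript. The study assembled more contigs in each population than are used here, so all contigs means below those used here. The 17 contigs carried 8 distinct product names, 5 of them in SD and 7 in SC.

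The study asked how populations from a warmer (SD) and a cooler (SC) part of the Californian coast differ in their response to acute heat. Heat stress samples were kept at 35 °C for 1 h and then at 20 °C for 1 h of recovery, and control samples stayed at 20 °C throughout. Each of the 4 samples was a pool of 300 to 400 whole copepods of all developmental stages and gave 1 library, so there are no replicates, and every interval below covers counting error only. The labels name no allele, transgene or further agent in any group.

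A ferritin molecule is a hollow shell of subunits that holds iron in a mineral form. In vertebrates, heavy chain subunits carry the ferroxidase centre that oxidises ferrous iron on entry, light chain subunits favour formation of the mineral core, and amphibians have in addition a middle subunit with ferroxidase activity. Plant ferritins are found mainly in plastids. In many animals iron regulatory proteins bind ferritin mRNA when iron is scarce and hold back its translation. The product names come from best BLAST hits in other species, so a name such as light oocyte isoform or bullfrog red cell ferritin names the closest database entry and not a known function in the copepod. Contigs with the same name may be separate genes, alleles or pieces of 1 transcript, and reads could be split between them.

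Values are RPKM (reads per kilobase of contig, scaled to the total reads of the library), which allow levels of contigs of different length to be compared. The totals behind them, recovered from the steps between RPKM values, were 5583127 reads for SD heat stress, 1947202 for SD control, 4948622 for SC heat stress and 3256758 for SC control. The control libraries were run in a different sequencing lane from the heat stress libraries, so lane and treatment cannot be told apart. The SC pair was also shifted with level. The median log2 ratio (heat stress over control) was 0.40 over all SC contigs and -0.29 over those with a mean of at least 100 RPKM, whereas in SD these medians were -0.033 and -0.027. For the abundant SC ferritins, ratios are given as deposited and then relative to each of these medians.

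Ferritin reads made up a smaller share of the heat stress library than of the control library in both populations. In SD, the 7 ferritin contigs held at least 5836 reads in the heat stress library and 3287 in the control library. These were 0.105% against 0.169% of the recovered totals. The ratio was 0.619 (95% exact interval 0.593 to 0.646). In SC, at least 4384 reads were found in the heat stress library and 5908 in the control library. These were 0.0886% against 0.181% of the recovered totals, a ratio of 0.488 (0.470 to 0.508). The reads are the smallest that fit the RPKM values. The shares are therefore minima, and the summed ratios depend on the contig lengths recovered. In bulk samples such as these, fewer cells of a type and less RNA per cell cannot be told apart.

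**Figure D1:**
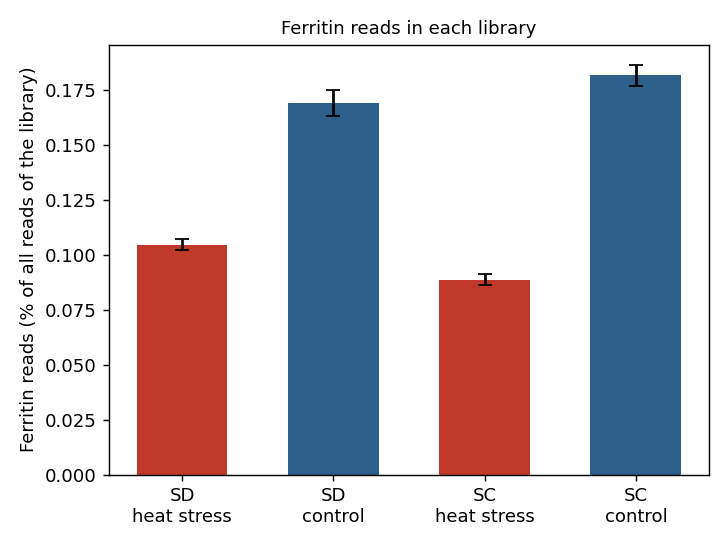
Share of a library's recovered total reads that lay on ferritin contigs, in percent (vertical axis, from 0), in the 4 libraries, with 95% exact intervals of counting error. Reads on the contigs are the smallest that fit the RPKM values, so the shares are minima. The heat stress bars stand at 0.105% (SD) and 0.0886% (SC) and the control bars at 0.169% (SD) and 0.181% (SC), with no overlap of intervals within a population.

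Differential expression was called with Kal's *Z*-test of proportions, with *p*-values Bonferroni adjusted over all contigs of a population and a threshold of 0.10. The test compares 2 libraries and not 2 conditions. In SD, 4 of 7 ferritin contigs were down-regulated and none was up-regulated, against 1.24% of all SD contigs called down and 1.35% called up. In SC, 5 of 10 were down-regulated and none up-regulated, against 2.49% of all SC contigs called down and 3.05% called up. Adjusted *p*-values of the called contigs reached at most 1.25e-09 in SD and 4.01e-09 in SC. All 9 called contigs were the ferritins above 100 RPKM, and the 8 that were not called were all below it. More contigs are called at such levels in general. Among those with a mean of at least 100 RPKM, 8.20% were called down in SD and 27.0% in SC.

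Contigs named as heavy chains were the most numerous kind, with 4 in each population, and 5 of the 8 were down-regulated. In SD, ferritin heavy chain polypeptide 1 on SD_Contig70443 had 1253 RPKM under heat stress and 1818 RPKM in the control, a ratio of 0.689 (0.643 to 0.739) from 2399 and 1214 reads. The same name on SD_Contig61832 had 443 RPKM under heat stress and 781 RPKM in the control, with a ratio of 0.567 (0.523 to 0.616). Ferritin heavy chain 1 on SD_Contig42805 had 131 RPKM under heat stress and 284 RPKM in the control, and its ratio of 0.463 (0.414 to 0.519) was the lowest of the SD ferritins. The intervals of these 3 ratios did not overlap, so these SD heavy chain contigs fell by amounts that differed beyond counting error. The remaining SD heavy chain contig, SD_Contig64071, was scarce. It had 15 reads under heat stress and 8 in the control, and its ratio of 0.654 (0.260 to 1.78) was not called.

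In SC, ferritin heavy chain 1 on SCN_Contig55716 had the most recovered reads of the ferritin contigs of that population, although such reads are minima. It had 552 RPKM under heat stress and 1222 RPKM in the control, with a ratio of 0.452 (0.428 to 0.477) from 2289 and 3334 reads. Ferritin heavy chain polypeptide 1 on SCN_Contig47751 had 525 RPKM under heat stress and 1075 RPKM in the control, a ratio of 0.488 (0.439 to 0.543). These ratios lay close together, with overlapping intervals. Relative to the median contig the ratios were 0.343 for SCN_Contig55716 and 0.371 for SCN_Contig47751, and relative to the median contig of at least 100 RPKM they were 0.553 (0.524 to 0.584) and 0.598 (0.537 to 0.665). The other pair of SC heavy chain contigs was scarce and had ratios on opposite sides of 1. SCN_Contig62519 had 3.46 RPKM under heat stress and 10.2 RPKM in the control, with a ratio of 0.338 (0.180 to 0.614) from 18 and 35 reads. SCN_Contig58490 had 27.6 RPKM under heat stress and 5.67 RPKM in the control, with a ratio of 4.87 (1.91 to 15.9) from 37 and 5 reads. Neither was called, and SCN_Contig58490 was the only SC ferritin with a ratio above 1. Summed over the heavy chain contigs, the ratio as deposited was 0.601 (0.573 to 0.631) in SD and 0.463 (0.442 to 0.486) in SC. The SC sum was not scaled, and SCN_Contig55716 gave 3334 of its 4190 control reads. The sums also group contigs by name. The study lists a shared ferritin under a joint middle subunit and heavy chain polypeptide 1 name. The 2 sums may therefore cover unlike genes. A larger fall of heavy chains in SC than in SD cannot be read from these sums.

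**Figure D2:**
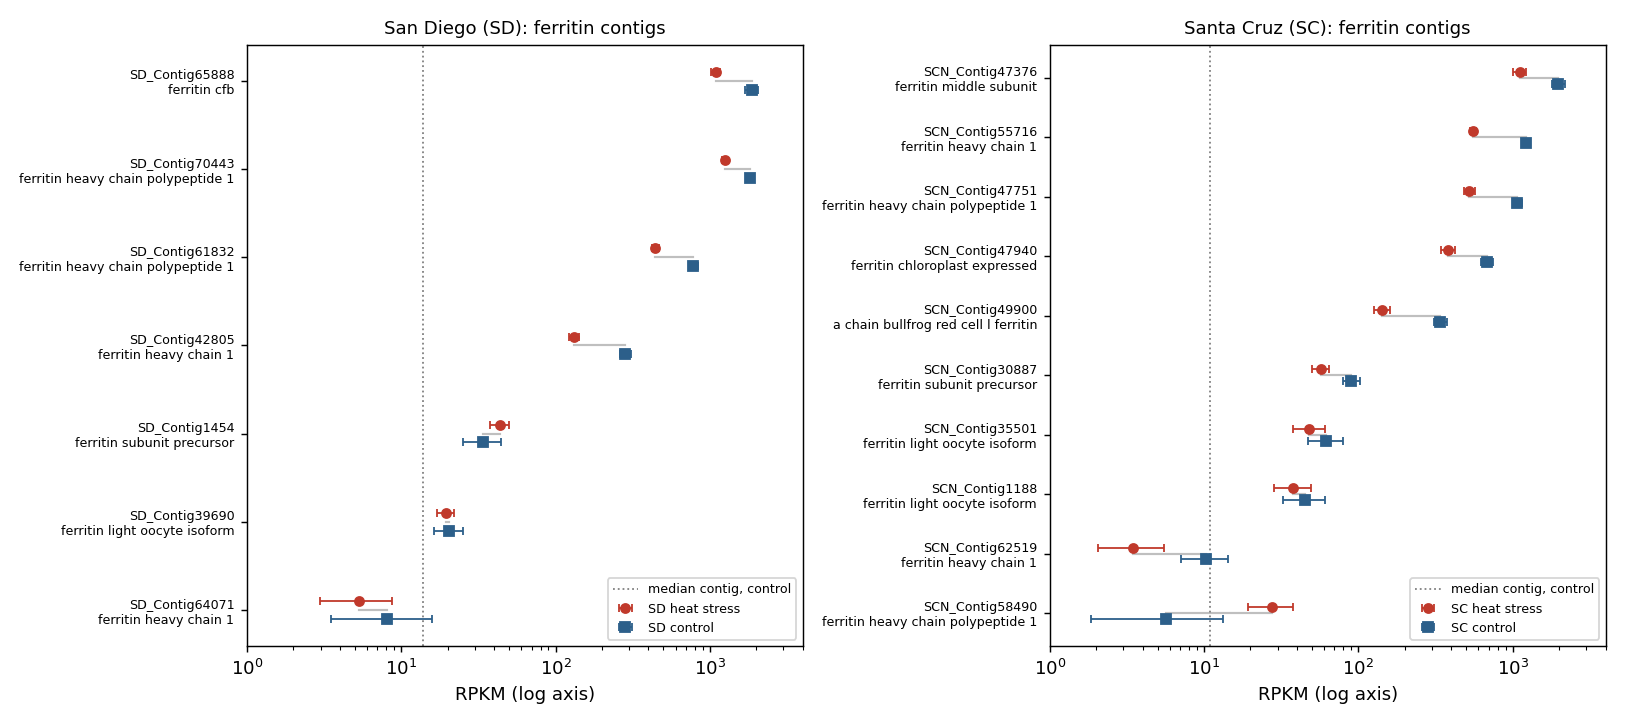
RPKM (log axis) of each ferritin contig under heat stress (red circles) and in the control (blue squares), SD left and SC right, with 95% exact intervals of counting error and the median control contig as a dotted line. Contigs above 100 RPKM lie lower under heat stress, from SD_Contig42805 (131 against 284 RPKM) to SCN_Contig47376 (1117 against 1983 RPKM), while most intervals of the scarcer contigs overlap.

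The highest ferritin level of the SD control library was that of ferritin cfb on SD_Contig65888, with 1091 RPKM under heat stress and 1867 RPKM in the control and a ratio of 0.585 (0.518 to 0.660). It ranked 69 among all SD contigs under heat stress and 30 in the control. The highest of the SC control library was that of ferritin middle subunit on SCN_Contig47376, with 1117 RPKM under heat stress and 1983 RPKM in the control and a ratio of 0.563 (0.491 to 0.645). This contig ranked 82 under heat stress and 47 in the control. Both were down-regulated. Among contigs with a mean above 1000 RPKM, 31.1% were called down in SD and 61.4% in SC. Ratios below 1 were held by 54.1% of these contigs in SD and 78.9% in SC. The call alone therefore did not set SCN_Contig47376 apart from most SC contigs of its level. The ratio of SCN_Contig47376 was 0.428 relative to the median contig and 0.690 (0.602 to 0.790) relative to the median contig of at least 100 RPKM. SD_Contig65888 had at least 719 reads under heat stress and 429 in the control, and SCN_Contig47376 had at least 398 under heat stress and 465 in the control. The lengths of these contigs are not known from the values used here, since 118 bp and 72 bp are only the smallest that give whole reads.

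All 4 light-type ferritins had ratios below 1 as deposited, and 1 of them was called. Ferritin light oocyte isoform in SD (SD_Contig39690) had 19.4 RPKM under heat stress and 20.3 RPKM in the control, and its ratio of 0.956 (0.743 to 1.24) includes 1. The SC contigs of that name had 48.2 against 62.0 RPKM (SCN_Contig35501) and 37.9 against 45.1 RPKM (SCN_Contig1188), heat stress against control. Their ratios of 0.777 (0.545 to 1.11) and 0.842 (0.555 to 1.29) also include 1, so as deposited a change of the oocyte isoform was not detectable at this depth. For the SC pair this depended on the scaling. Relative to the median contig the ratios were 0.590 (0.414 to 0.844) and 0.640 (0.421 to 0.976), and relative to the median contig of at least 100 RPKM they were 0.951 (0.667 to 1.36) and 1.03 (0.679 to 1.57). The contig named for the A chain of bullfrog red cell L ferritin (SCN_Contig49900) had no SD contig of that name among those used here. It had 142 RPKM under heat stress and 340 RPKM in the control, and its ratio of 0.419 (0.360 to 0.487) was the lowest among the called contigs of either population. It was 0.318 relative to the median contig and 0.513 (0.441 to 0.596) relative to the median contig of at least 100 RPKM.

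Ferritin subunit precursor was the one name found on exactly 1 contig in each population. In SD (SD_Contig1454) it had 43.5 RPKM under heat stress and 33.6 RPKM in the control, a ratio of 1.29 (0.949 to 1.79) from 193 and 52 reads. In SC (SCN_Contig30887) it had 57.3 RPKM under heat stress and 90.2 RPKM in the control, a ratio of 0.635 (0.530 to 0.760) from 244 and 253 reads. Neither contig was called, although the SC contig passed the same threshold when the test was run on recovered reads. The difference of the log2 ratios, SD minus SC, was 1.03 with a 95% interval of 0.52 to 1.54. It was 1.46 after each population was scaled by its median contig and 0.76 (0.25 to 1.27) after scaling by the median contig of at least 100 RPKM.

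Among the contigs used here, the name ferritin chloroplast expressed was on 1 SC contig, SCN_Contig47940, with 383 RPKM under heat stress and 683 RPKM in the control. The contig was down-regulated, with a ratio of 0.561 (0.487 to 0.644). This was 0.426 relative to the median contig and 0.686 (0.597 to 0.789) relative to the median contig of at least 100 RPKM. The study lists ferritin heavy chain 1 as down-regulated in both populations. The same holds there for a ferritin with a joint middle subunit and heavy chain polypeptide 1 name. It lists ferritin chloroplast expressed for both populations, up-regulated in SD and down-regulated in SC. No SD contig of that name was among those used here, so its SD response was not examined. Because the name is that of a plant protein, contigs named for algal or bacterial products were read beside it. Contigs named cell wall-associated hydrolase, a bacterial annotation, summed to 13332 RPKM under heat stress and 7114 RPKM in the control in SC, where 32 of 47 were called up and none down. In SD they summed to 2065 RPKM under heat stress and 3897 RPKM in the control, with 1 of 49 called up and 16 down. Photosynthesis and chloroplast names summed to 165 against 197 RPKM on 7 SC contigs (1 called up) and to 126 against 87.0 RPKM on 6 SD contigs (none called), heat stress against control. These sums rested largely on chlorophyllase 1 and on ribulose-phosphate 3-epimerase, which animals also have. The other contigs, with light-harvesting, rubisco and chloroplast names, summed to 77.6 RPKM under heat stress and 42.3 RPKM in the control on 5 SC contigs, and to 34.4 RPKM under heat stress and 5.17 RPKM in the control on 4 SD contigs. SCN_Contig47940 had a higher RPKM than the 7 SC contigs with photosynthesis and chloroplast names together in both libraries. It had a lower RPKM than the summed SC cell wall-associated hydrolase contigs in both. The part of algal or bacterial RNA in the ferritin values was not tested.

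**Figure D3:**
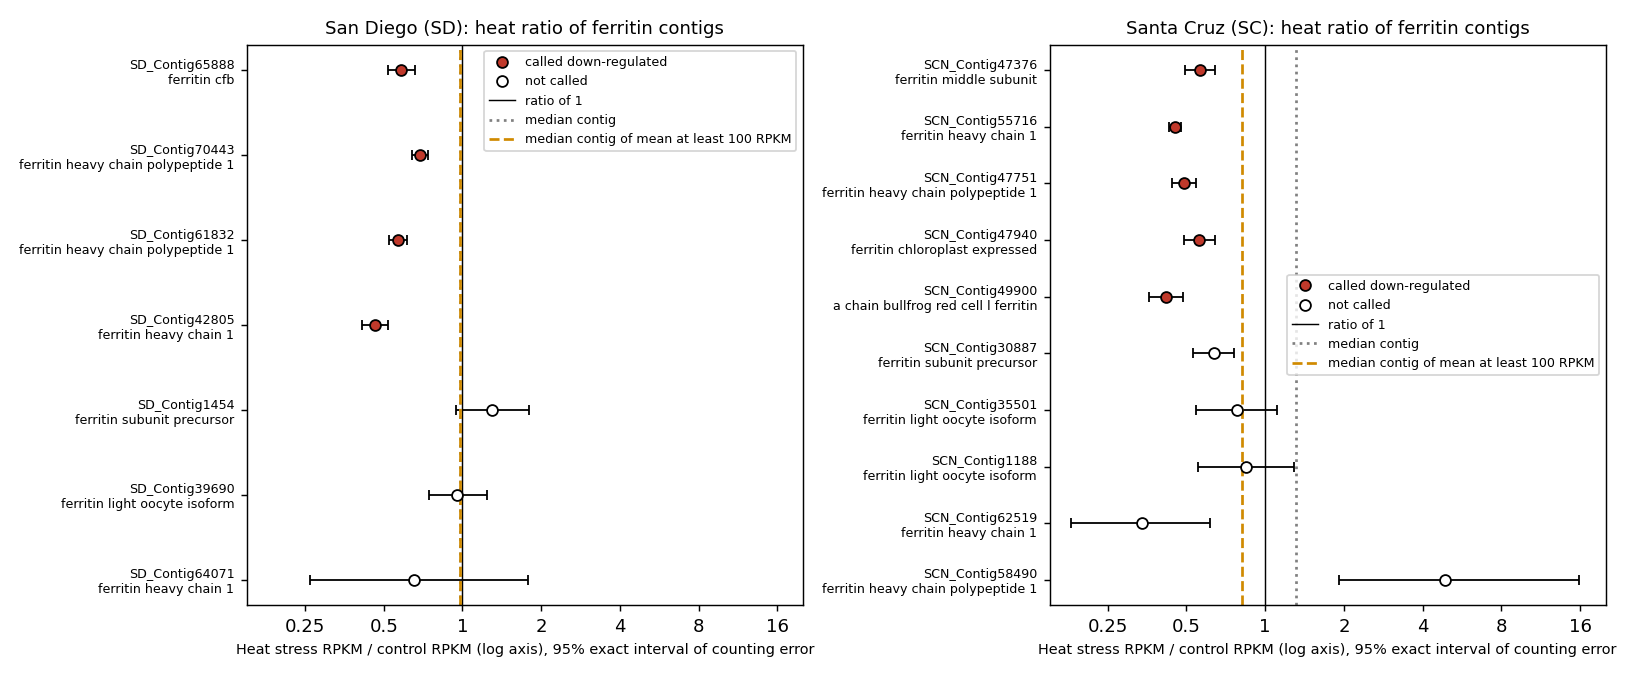
Ratio of heat stress to control RPKM (log axis) of each ferritin contig with its 95% exact interval of counting error, SD left and SC right, ordered by control RPKM. Red points are called down-regulated. The solid line marks a ratio of 1, the dotted line the median contig and the dashed line the median contig of at least 100 RPKM. The called contigs lie between 0.463 and 0.689 in SD and between 0.419 and 0.563 in SC.

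Ratios below 1 were found for 6 of 7 SD ferritins, against 53.3% of all SD contigs, and for 9 of 10 SC ferritins, against 36.1% of all SC contigs. Among contigs with a mean of at least 100 RPKM, where all 4 SD and all 5 SC ferritins had ratios below 1, the shares were 56.5% in SD and 62.6% in SC. RPKM was lower under heat stress by at least 1.5-fold for 4 SD ferritins, against 13.2% of SD contigs, and for 7 SC ferritins, against 17.6% of SC contigs. It was higher by at least 1.5-fold for no SD ferritin, against 15.9% of SD contigs, and for 1 SC ferritin, against 42.5% of SC contigs. The whole interval lay below 1 for 4 SD and 7 SC contigs and above 1 for no SD and 1 SC contig. The median log2 ratio of the ferritins was -0.61 in SD and -0.83 in SC. The medians over all contigs were -0.033 in SD and 0.40 in SC. Since the SC medians depend on level, each ferritin was also read against contigs of its own level. Both SD ferritins with a mean of 100 to 1000 RPKM and both above 1000 RPKM had ratios under the lower quartile of their level range. So did the 4 SC ferritins with a mean of 100 to 1000 RPKM, where the lower quartile stood at -0.82. For SCN_Contig47940, at -0.835, the interval of -1.04 to -0.634 included that quartile. Above 1000 RPKM, SC contigs had a median log2 ratio of -0.62 and a lower quartile of -0.87, and SCN_Contig47376 at -0.83 lay between them. The scarcer ferritins were mixed. With a mean of 10 to 100 RPKM, neither of the 2 SD ferritins lay below the median of its level range, and 3 of 4 SC ferritins lay below the median but only 1 below the lower quartile. The single ferritin below 10 RPKM in each population lay under the lower quartile.

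**Figure D4:**
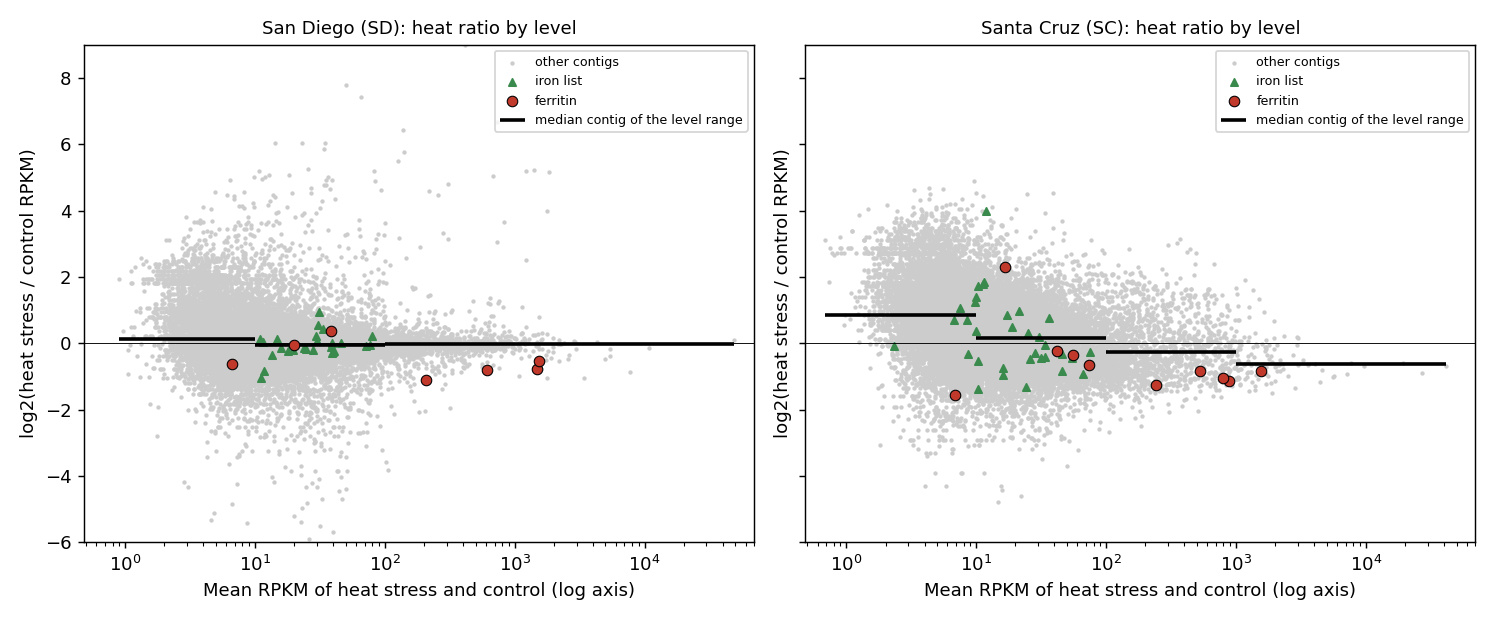
Log2 ratio of heat stress to control RPKM against the mean RPKM of the pair (log axis), for all contigs above 0 in both libraries (grey), the iron list (green triangles) and the ferritins (red), SD left and SC right. Black lines are medians within level ranges, which fall with level in SC to -0.62 above 1000 RPKM and stay near 0 in SD, at -0.018. Ferritins above 100 RPKM lie below these lines in both panels, while the iron list is spread around them.

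Summed ferritin reads had a log2 ratio of -0.69 in SD and -1.03 in SC. The difference, SD minus SC, was 0.34 (0.26 to 0.43) as deposited. It was 0.77 (0.69 to 0.86) after scaling each population by its median contig and 0.077 (-0.0063 to 0.16) after scaling by the median contig of at least 100 RPKM. The larger drop in SC was thus not separable from 0 once the SC shift of abundant contigs was taken out. The lower summed share under heat stress within each population kept its direction under all of these scalings.

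Levels spanned 231-fold to 350-fold within a library, from 5.29 to 1253 RPKM in SD heat stress, from 8.09 to 1867 RPKM in SD control, from 3.46 to 1117 RPKM in SC heat stress and from 5.67 to 1983 RPKM in SC control. The order of the SD contigs was the same in both libraries apart from the top pair. SD_Contig70443 was above SD_Contig65888 under heat stress with intervals that did not overlap, whereas in the control the intervals of the pair overlapped. In SC the first 8 places were also held by the same contigs in the same order, except that SCN_Contig58490 stood 9th under heat stress and 10th in the control, having changed places with SCN_Contig62519. Neighbours whose intervals overlapped in both SC libraries were the subunit precursor with SCN_Contig35501, and SCN_Contig35501 with SCN_Contig1188.

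Of the other genes of iron handling, 1 contig passed Kal's test on RPKM. Calls of these genes on recovered reads are not given here. A list of product names for iron sensing, transport, reduction, heme synthesis and breakdown, and iron-sulfur cluster assembly matched 26 SD and 33 SC contigs, none of which exceeded 78.6 RPKM in the SD control or 87.4 RPKM in the SC control. In SD none was called in either direction, against 2.59% of all SD contigs, and the median log2 ratio was -0.097. In SC 1 was called up and none down, against 5.54% of all SC contigs called in either direction, with a median of -0.043. Counts this small are near those shares. Contigs at such levels were seldom called down, with 1.43% in SD and 1.06% in SC at a mean of 10 to 100 RPKM. The whole interval lay below 1 for 1 SD and 9 SC contigs, above 1 for 2 SD and 9 SC contigs, and included 1 for 23 SD and 15 SC contigs. The contig called was a transferrin protein (SCN_Contig42934), an iron carrier of body fluids, with 22.5 RPKM under heat stress and 1.42 RPKM in the control. Its ratio of 15.8 (2.58 to 650) rested on 24 reads under heat stress and 1 read in the control. The other 5 SC transferrin contigs also had ratios above 1, so that all 6 lay between 1.62 and 15.8, 4 of them with intervals above 1, on 1 to 24 control reads. The single SD transferrin contig had a ratio of 1.09 (0.752 to 1.62). Low SC contigs as a whole were shifted upwards, with a median log2 ratio of 0.86 below a mean of 10 RPKM. At a mean of 10 to 100 RPKM the SC median was 0.16. The called contig lay in this higher range, and the other SC transferrin contigs lay on either side of 10 RPKM.

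Iron regulatory protein is a translational repressor of ferritin in many animals. The contig of that name had 69.2 RPKM under heat stress and 72.7 RPKM in the control in SD, a ratio of 0.952 (0.810 to 1.12). In SC it had 68.4 RPKM under heat stress and 82.8 RPKM in the control, a ratio of 0.827 (0.763 to 0.896). It was not called in either population. Cytoplasmic aconitate hydratase, the other iron sensing name of the list, had ratios of 1.01 (0.885 to 1.16) in SD and 1.14 (0.986 to 1.31) in SC. That contig was also not called. These genes and those that follow were chosen after their values were seen. Heme oxygenase, which frees iron from heme, had a ratio of 1.03 (0.592 to 1.86) in SD and 0.513 (0.341 to 0.767) in SC and was likewise not called. Natural resistance-associated macrophage protein, an iron and manganese transporter, had ratios of 0.872 (0.614 to 1.26) in SD and 0.599 (0.428 to 0.837) in SC, again without a call. Other SC contigs of the list had intervals above 1, also without a call. They include protein malvolio (SCN_Contig53454), a transporter of the same family, at 2.60 (1.60 to 4.42). Others were the mitochondrial 5-aminolevulinate contig at 1.71 (1.44 to 2.04) and iron-sulfur cluster assembly 2 at 1.97 (1.57 to 2.48). The remaining SC malvolio contigs had ratios of 0.806 (0.520 to 1.26) and 2.35 (0.988 to 6.44). Of the 8 SC heme contigs, 5 had ratios below 1. Among these were uroporphyrinogen iii synthase at 0.399 (0.310 to 0.512) and uroporphyrinogen decarboxylase at 0.559 (0.458 to 0.681). The iron-sulfur cluster assembly factor nubp2 was at 0.528 (0.436 to 0.637) in SC. In SD, iron-sulfur clusters transporter atm1 had a ratio of 1.91 (1.27 to 2.96) and porphobilinogen deaminase one of 0.556 (0.350 to 0.894).

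Of the 4397 names held by a single contig in SD and a single contig in SC, those with levels most like ferritin subunit precursor over the 4 libraries were polymerase delta-interacting protein 2, NAD malic enzyme and a partial si:dkey entry. Their distances in log2(RPKM + 1) were 0.25, 0.26 and 0.31. This is a description over 4 values and says nothing of shared function.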

How the data were processed

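mRNA of 4 copepod pools was sequenced, 1 library per population and treatment. The authors mapped trimmed single-end reads to the de novo assembly of each population in CLC Genomics Workbench 4.5 and took contig names from BLAST hits. The deposited unit is RPKM per contig, without counts. RPKM depends on the contig length assembled, and SD and SC levels come from separate assemblies, so only ratios within a population were compared. Groups were taken from the sample labels.

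Kal's *Z*-test compared each contig's share of the total RPKM listed for a library, with Bonferroni adjustment over all contigs of a population (20278 in SD, 20931 in SC) and calls at 0.10. It takes RPKM as if they were reads, so short contigs can be called on few reads. Whole reads were therefore recovered from the deposited RPKM steps as the smallest contig length between 30 and 10000 bp and the library totals that gave whole reads in both libraries. All contigs were recovered, so reads and lengths are minima. The chance of such a fit was under 0.05 for 88.1% of SD contigs, 100.0% of SC contigs and all 17 ferritins. Intervals of ratios (95%) were computed by the Clopper-Pearson method from how these reads divide between heat stress and control. PCR reads without molecular identifiers are not independent molecules, and intervals cover counting error only. The difference of log2 ratios used a variance of 1/reads for each log count. Contigs at 0 in a library (5 in SD heat stress, 577 in SD control, 4 in SC heat stress, 254 in SC control) were left out of log2 ratios. On a contig of 500 bp, 1 read is worth 0.358 RPKM in SD heat stress, 1.03 in SD control, 0.404 in SC heat stress and 0.614 in SC control.

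Values of each library were to be given for ferritins that were called, had at least 100 RPKM in either library or had a name on exactly 1 contig in each population. Low-level heavy chain and light oocyte contigs were added so that every member is accounted for. The members and the iron, algal and bacterial lists were chosen with earlier results of these data known. Alternatives were other scalings, tests on recovered reads, thresholds, filters of 1 RPKM or of more than 10 reads, a 1.5-fold rule and a pseudocount of 1 RPKM. Scaling by contigs with a mean of at least 100 RPKM was chosen after seeing the data. Scripts were tested on simulated data. Python 3.11.15, numpy 2.4.6, scipy 1.17.1, pandas 2.3.3 and matplotlib 3.10.9 were used.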

Additional observations from a re-analysis of the deposited data

Results flagged for a closer look

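The log2 heat ratio of ferritin subunit precursor differed between the populations by 1.03 (SD minus SC, 0.52 to 1.54), with a ratio of 1.29 in SD and 0.635 in SC. The log2 heat ratio of summed ferritin reads differed by 0.34 (SD minus SC, 0.26 to 0.43). Both intervals cover counting error alone, since each treatment has 1 library per population.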

How the results depend on the processing

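Ferritin calls in SD stayed at 4 under all alternatives run, and the same 4 contigs were called in all but the 1.5-fold rule, which shared 3 of them. SC calls were 5 or 6 under the other alternatives and 8 by the 1.5-fold rule (7 down, 1 up), and the 5 called contigs were among them each time. SCN_Contig30887 was called down by Kal's test and by Fisher's exact test on recovered reads, and SCN_Contig58490 was called up by Benjamini-Hochberg adjustment at 0.05. The median SC ferritin log2 ratio of -0.83 became -1.23 when scaled by the median contig and -0.54 when scaled by the median contig of at least 100 RPKM. The summed SC log2 ratio of -1.03 became -1.43 and -0.74 under those scalings, and -0.90 without the contig with the most reads. The summed SD log2 ratio of -0.69 became -0.79 without that contig. The SD minus SC difference of summed reads was 0.077 under the 100 RPKM scaling. Among the single contigs, the log2 ratio of SCN_Contig1188, which was not called, turned from -0.25 to 0.044 under the 100 RPKM scaling, and no other ferritin changed direction. The cause of these shifts was not tested.

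Over all SC contigs, 638 were called up and 522 down. These counts were 232 and 1205 when scaled by the median contig, 488 and 697 when scaled by contigs of at least 10 RPKM, 855 and 443 when scaled by contigs with a mean of at least 100 RPKM, 2276 and 1472 on recovered reads, 2390 and 1433 by Fisher's exact test, 2944 and 1370 by Benjamini-Hochberg adjustment and 9047 and 3651 by the 1.5-fold rule. In SD 274 were called up and 252 down, against 284 and 360 on recovered reads, 321 and 319 by Fisher's exact test, 190 and 249 with at least 1 RPKM in both libraries, 724 and 544 by Benjamini-Hochberg adjustment and 3709 and 2602 by the 1.5-fold rule.

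No paired analysis was possible because each population has 1 library per treatment and the labels give no replicate numbers. For the same reason no library was left out.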

Other observations

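Contigs named ferritin with a bracketed species, which are not among the 17, had 72.7 against 77.6 RPKM and 46.4 against 42.4 RPKM in SD, heat stress against control. In SC they had 77.3 against 136 RPKM and 48.3 against 68.9 RPKM. None of the 4 was called, and the SC ratios of 0.568 (0.456 to 0.707) and 0.701 (0.583 to 0.844) lay below 1 over their whole intervals, while the SD ratios of 0.937 (0.756 to 1.17) and 1.09 (0.848 to 1.43) included 1.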
